A study of Homo sapiens with 15 samples.

Results

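The comparison set 3 libraries of IMR90 cells that expressed RAS and had been depleted of METTL14 against 3 libraries of control IMR90 cells, 6 of the 15 libraries in the series. IMR90 cells are human lung fibroblasts. The control cells carried a retroviral vector without RAS and received a non-targeting siRNA (siControl), and the knockdown cells carried the RAS retrovirus and received siMETTL14. A further 3 libraries of RAS cells given siControl are quoted as the senescent reference. In all of these groups the first siRNA transfection fell on day 4 after the retrovirus and a second on the following day, and RNA was collected 48 hours after that. The description of the knockdown libraries adds the abbreviation vec, which is not spelled out, and the protocol describes lentiviral METTL14 constructs given with the second siRNA. RAS, METTL14 depletion and any empty lentivirus therefore cannot be told apart in the difference from control, and neither the RAS isoform nor separate cultures are named. The genotype field calls the depletion a knockout, whereas the protocol describes siRNA. If the replicates are not separate cultures, p-values measure only the technical spread between these libraries.

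Oncogenic RAS drives fibroblasts into senescence, a lasting exit from the cell cycle held by the inhibitors p16 and p21 and accompanied by loss of lamin B1. Senescent cells secrete cytokines, chemokines, growth factors and proteases, known together as the senescence-associated secretory phenotype (SASP), whose transcription depends on NF-κB and C/EBPβ. METTL14 is the RNA-binding partner of METTL3 in the complex that methylates adenosine in mRNA (m6A). The comparison asks which components of the senescent state were still present, and which lay near the control level, once METTL14 had been depleted.

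Libraries were made with a QuantSeq kit, and the deposited table gives whole-number counts per gene. Total counts ran from 5677742 to 6124671 in control, from 5611724 to 7763084 in siControl RAS and from 4917661 to 6441349 in knockdown libraries. Levels below are CPM (counts scaled to the TMM-adjusted library size), with no division by gene length. A difference is the log2 knockdown level minus the log2 control level unless another pair is named, ± gives the SE of the fit, and a gene is called where edgeR's quasi-likelihood p, adjusted by Benjamini-Hochberg over all tested genes, is under 0.05. A gene is described as within 1.5-fold of control when the whole 95% interval of its log2 difference lay between -0.585 and 0.585. METTL14 itself had 19.1, 21.2 and 23.3 CPM in the control libraries, 26.2, 19.3 and 20.5 CPM in the siControl RAS libraries and 9.35, 4.94 and 3.94 CPM in the knockdown libraries. All 3 knockdown libraries lay below the other 6, replicate 1 the least, and the difference from control was -1.85 ± 0.23 (edgeR adjusted p = 2.60e-06). METTL3, its catalytic partner, had means of 15.8, 12.4 and 13.99 CPM in control, siControl RAS and knockdown cells, with an interval of -0.75 to 0.39 for knockdown minus control, and was not called. HRAS had means of 57.8, 40.2 and 50.1 CPM in the same order and was not called, so this gene's tags do not show the RAS vector. Knockdown replicate 1 stood apart on the third principal component (5.52% of the variance), at 54.4 against -25.6 to 9.88 for the other libraries. Without it 4422 genes were called in place of 4862. Leaving out any 1 control or knockdown library gave 4290 to 4422 calls, so its removal changed the count least. Among cell type markers, 13 of 14 fibroblast, 7 of 14 epithelial, 4 of 9 endothelial and 1 of 10 leukocyte markers were tested. Those with 0 counts in the 3 groups were 6 epithelial, 2 endothelial and 6 leukocyte markers, PTPRC and CD3E among them. The epithelial keratin KRT18 and the endothelial marker TEK summed to 2270 and 1416 counts over these libraries.

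The fibroblast markers, mostly collagen, summed to between 10800 and 10970 CPM in the control libraries, between 22400 and 23440 CPM in the siControl RAS libraries and between 18440 and 19280 CPM in the knockdown libraries. All these sums cover tested members only. The 7 tested epithelial markers summed to 137 to 151 CPM, 52.6 to 70.2 CPM and 84.7 to 95.9 CPM in the same order. The 4 tested endothelial markers summed to 18.6 to 25.5, 37.3 to 39.0 and 41.7 to 45.7 CPM. CD68, the 1 leukocyte marker tested, had 2.80 to 7.66, 13.9 to 23.2 and 5.40 to 13.8 CPM. The part of these lists in the results below was not tested. Of the 13 tested fibroblast markers, 8 (61.5%) were called higher, 3 (23.1%) lower and 2 (15.4%) were within 1.5-fold, against 19.2%, 16.7% and 23.9% of all genes, with a median of 1.16. The 3 called lower were VIM, vimentin, and the pair that follows. TCF21 and TBX5, transcription factors of the lung mesenchyme, were lower in knockdown cells than in both other groups, with means of 39.2, 25.7 and 14.01 CPM and 96.4, 72.9 and 52.7 CPM in control, siControl RAS and knockdown cells. Their differences from control were -1.48 ± 0.21 (edgeR adjusted p = 5.10e-07) and -0.87 ± 0.11 (edgeR adjusted p = 1.18e-07).

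Of 13516 genes tested, 4862 (36%) were called between knockdown RAS cells and control, 2600 (19.2%) higher and 2262 (16.7%) lower. At least 2-fold differences were called for 1134 genes higher (8.39%) and 809 lower (5.99%). A total of 3235 genes (23.9%) were within 1.5-fold of control, among them 550 (4.07%) that were called as well, and 5969 (44.2%) were neither called nor shown to be within 1.5-fold. The siControl RAS cells, tested against the same 3 control libraries, gave 6201 calls (45.9%), and 2100 genes (15.5%) were called between knockdown and siControl RAS cells. These contrasts share libraries, so each is given with its own values. Across 19 lists of genes grouped by process, the division, cytokine, interferon-stimulated and NF-κB lists lay far from control in the knockdown cells. The protease, ERK target, stress response, cholesterol and contractile lists had medians between -0.21 and 0.29. A small median need not mean members near control. Of proteases 58.8% were called higher, against 19.2% of all genes, and of ERK targets 19.05% were within 1.5-fold, against 23.9%. The glycolysis and hypoxia, respiratory chain and m6A lists had medians in the same range, with 63%, 58.6% and 45% of members within 1.5-fold. The median over all tested genes was -0.000392 for knockdown minus control. In bulk libraries fewer cells expressing a gene and less RNA per cell cannot be told apart.

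**Figure D1:**
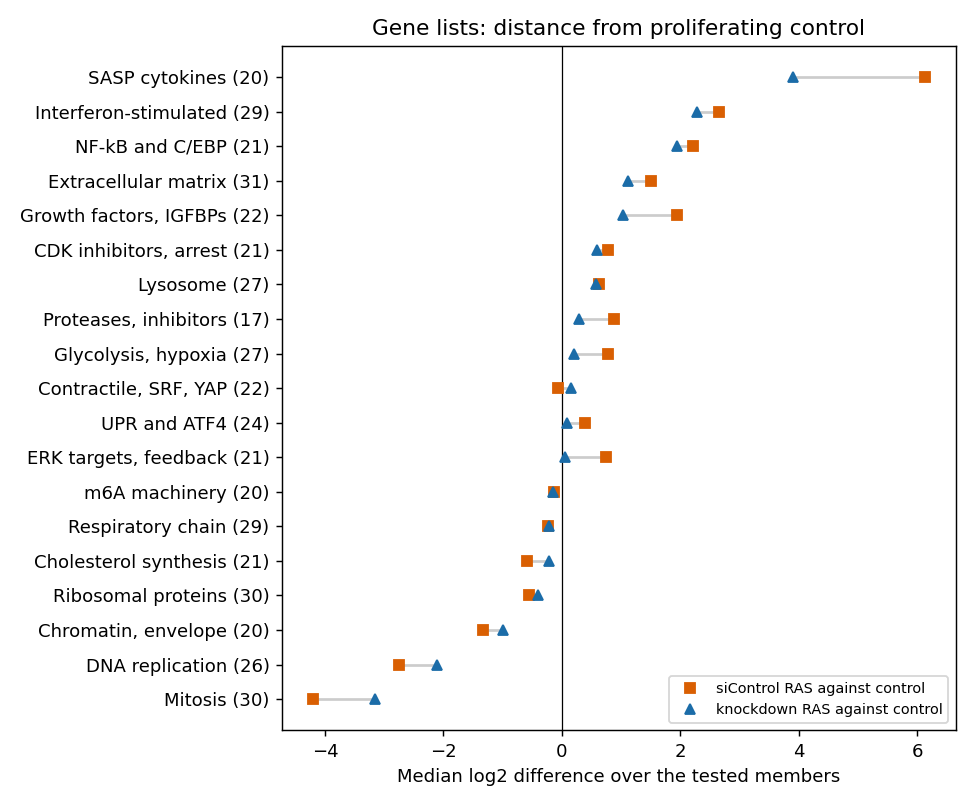
Median log2 difference from control over the tested members of 19 gene lists (number of members in brackets), for siControl RAS cells (squares) and knockdown RAS cells (triangles), both against the same control libraries. The SASP cytokines lie at 6.13 and 3.91 and the mitosis list at -4.21 and -3.16, while the ERK target list lies at 0.06 in the knockdown cells.

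Inflammatory cytokines and chemokines remained far above control. Of 20 tested members of the SASP cytokine list (IL33, CSF2, CCL7 and CCL8 were too low to test), 15 were called higher and 2 lower, against 19.2% and 16.7% of all genes, and none was within 1.5-fold. The median log2 difference was 3.91 in knockdown cells and 6.13 in siControl RAS cells. IL1B, the interleukin released by inflammasome activation, had 0.156, 1.81 and 0.665 CPM in the control libraries, 644, 655 and 785 CPM in the siControl RAS libraries and 146, 140.1 and 186 CPM in the knockdown libraries. The 3 groups did not overlap, the knockdown libraries lay between the others, and the difference from control was 7.47 ± 0.51 (edgeR adjusted p = 1.05e-11). IL1A, the membrane-associated interleukin upstream of much of the SASP, summed to 3 counts in control, and its ratio of knockdown to control counts per library size was 219.8 (95% counting interval 74.8 to 1069). CXCL8, which attracts neutrophils, had 1.56, 1.81 and 4.99 CPM in the control libraries, 831, 868 and 902 CPM in the siControl RAS libraries and 184, 242 and 282 CPM in the knockdown libraries. Its groups were likewise separate, and the difference from control was 6.41 ± 0.37 (edgeR adjusted p = 1.90e-09). CXCL1, another neutrophil attractant, averaged 1.91, 1693 and 502 CPM in control, siControl RAS and knockdown cells and differed from control by 8.04 ± 0.43 (edgeR adjusted p = 5.03e-10). Tags of CXCL1, CXCL2 and CXCL3 are uncertain among themselves because these genes are near-identical copies. IL6, with means of 0.374, 56.6 and 9.78 CPM in that order, differed from control by 4.63 ± 0.66 (edgeR adjusted p = 2.88e-09), the colony-stimulating factor CSF1 by 1.78 ± 0.24 (edgeR adjusted p = 2.63e-07) and the IL6-family cytokine LIF by 2.12 ± 0.47 (edgeR adjusted p = 3.43e-04). CSF3, which drives granulocyte production, was at 1 count over the 3 control libraries and averaged 160.1 CPM in siControl RAS and 20.2 CPM in knockdown cells, a knockdown to control ratio of 371 (95% counting interval 66.1 to 14690).

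A few secreted factors did not follow this order. CCL2, which attracts monocytes, had 9.38, 13.2 and 13.1 CPM in the control libraries, 93.4, 117 and 92.3 CPM in the siControl RAS libraries and 75.4, 157 and 136 CPM in the knockdown libraries. The knockdown and siControl RAS libraries overlapped, both groups lay above every control library, and the difference from control was 3.37 ± 0.38 (edgeR adjusted p = 2.52e-05). IL32, a cytokine induced by interferon and TNF, had 12.5, 11.4 and 10.3 CPM in the control libraries, 80.2, 82.4 and 84.0 CPM in the siControl RAS libraries and 156, 115 and 129 CPM in the knockdown libraries. Every knockdown library exceeded the siControl RAS libraries, by 0.69 ± 0.11 (edgeR adjusted p = 1.55e-05), and the difference from control was 3.54 ± 0.14 (edgeR adjusted p = 2.30e-21). IL11, a cytokine of the IL6 family made by activated fibroblasts, had 109, 115 and 123 CPM in the control libraries, 860.1, 765 and 807 CPM in the siControl RAS libraries and 65.0, 62.3 and 64.0 CPM in the knockdown libraries. It was highest in siControl RAS cells and lower in all knockdown than in all control libraries, with a difference from control of -0.86 ± 0.09 (edgeR adjusted p = 1.22e-09). IL24 averaged 1.49, 10.9 and 0.973 CPM in control, siControl RAS and knockdown cells and CCL20, an attractant for CCR6-bearing lymphocytes, 0.165, 11.5 and 0.318 CPM. Neither was called against control: the interval for IL24 was -2.12 to 0.81, and the knockdown to control ratio of CCL20 was 2.11 (95% counting interval 0.451 to 13.1), too wide to place it near control. The other member called lower was CXCL12, the stromal chemokine that binds CXCR4, which had 51.7, 56.8 and 48.2 CPM in the control libraries, 0.817, 0 and 0.178 CPM in the siControl RAS libraries and 1.22, 0.463 and 1.31 CPM in the knockdown libraries. Both RAS groups lay below all control libraries, and the difference for knockdown cells was -5.71 ± 0.48 (edgeR adjusted p = 1.19e-12).

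**Figure D2:**
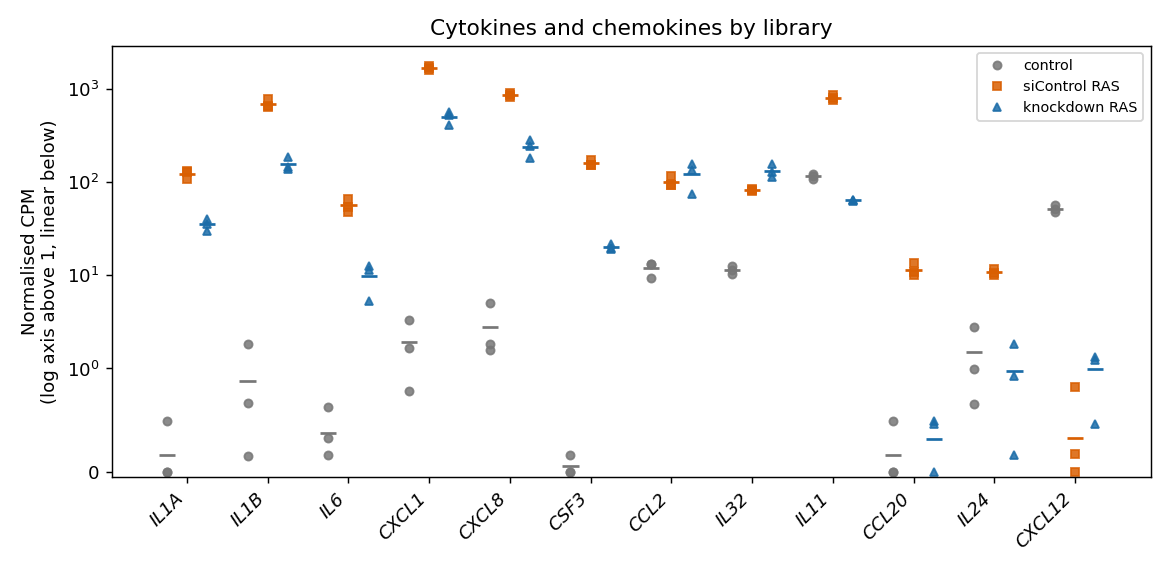
Normalised CPM of 12 cytokines and chemokines (log axis above 1 CPM, linear below) in each control, siControl RAS and knockdown RAS library, with a line at each group mean. IL1B, CXCL1 and CXCL8 in knockdown cells lie between the other groups, CCL2 and IL32 at or above the siControl RAS level, IL11 below control, and CCL20 and IL24 overlap control.

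The upstream sequences of 2 chemokines that remained high are shown because both carry letters of the NF-κB recognition motif and one also those of the interferon response element. Each is the stretch of 250 bases before the RefSeq start on GRCh38.p14, read 5′ to 3′ on the gene's strand, with matches in capitals: CXCL8 at chr4:73740319-73740568 on the plus strand and CXCL10 at chr4:76023498-76023747 on the minus strand.
CXCL8: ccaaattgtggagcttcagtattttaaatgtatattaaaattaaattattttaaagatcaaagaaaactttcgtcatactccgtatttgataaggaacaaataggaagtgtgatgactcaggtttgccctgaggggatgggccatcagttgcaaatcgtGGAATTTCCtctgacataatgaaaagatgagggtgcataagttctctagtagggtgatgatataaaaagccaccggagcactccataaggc
CXCL10: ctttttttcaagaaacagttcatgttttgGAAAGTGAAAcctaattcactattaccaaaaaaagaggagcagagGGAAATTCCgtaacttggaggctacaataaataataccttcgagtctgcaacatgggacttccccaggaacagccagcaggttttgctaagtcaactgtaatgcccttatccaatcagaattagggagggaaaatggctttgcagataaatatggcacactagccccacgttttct
The κB letters searched were GGNNTTTCC and the interferon response letters GAAA, any pair of bases and GAAA again, each on both strands. In these windows CXCL8 has the κB match GGAATTTCC, and CXCL10 has GGAAATTCC and the interferon match GAAAGTGAAA, which do not overlap. Only these letters were searched, so κB sites of another form would stay in lower case and are not counted. A κB match was present in 9 of 20 available SASP cytokine promoters (45%) and in 10 of 18 of the NF-κB and C/EBP list (55.6%). The share was 5.48% of all 27305 promoters. Promoters were taken for list members whether or not their expression could be tested, so these 20 need not be the 20 tested cytokines. The 27305 promoters are likewise not limited to tested genes. An interferon match was present in 15 of 23 promoters of the interferon-stimulated list (65.2%), against 3.07% of all. The NF-κB and interferon lists were drawn up from genes of those pathways, so high shares there follow from the choice of genes. They say nothing about the knockdown. These matches describe letters in a fixed window and are not sites of measured binding.

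Most growth factors and IGF-binding proteins were above control. Of 22 tested members (TGFA was too low), 16 (72.7%) were called higher, 2 (9.09%) lower and 3 (13.6%) were within 1.5-fold, against 19.2%, 16.7% and 23.9% of all genes, with a median of 1.04 in knockdown and 1.94 in siControl RAS cells. BMP2, a bone morphogenetic protein, had 9.22, 13.5 and 7.65 CPM in the control libraries, 256, 312 and 256 CPM in the siControl RAS libraries and 216, 229 and 240.3 CPM in the knockdown libraries. Both RAS groups lay above control, and the knockdown difference was 4.49 ± 0.13 (edgeR adjusted p = 9.92e-24). GDF15, a stress-induced member of the TGF-β superfamily, differed by 3.29 ± 0.07 (edgeR adjusted p = 8.13e-28), with means of 104, 1944 and 1021 CPM in control, siControl RAS and knockdown cells. IGFBP5, which binds insulin-like growth factors, differed by 3.09 ± 0.05 (edgeR adjusted p = 4.88e-32) with means of 717, 11344 and 6092 CPM. HGF, the ligand of MET, had 83.9, 89.1 and 74.5 CPM in the control libraries, 332, 354 and 346 CPM in the siControl RAS libraries and 435, 430.1 and 433 CPM in the knockdown libraries. Every knockdown library was above both other groups, and the differences were 2.39 ± 0.07 (edgeR adjusted p = 1.46e-23) from control and 0.33 ± 0.07 (edgeR adjusted p = 8.48e-04) from siControl RAS cells. AREG, a ligand of the EGF receptor, averaged 5.09, 652 and 40.8 CPM in the same order of groups and remained above control by 2.99 ± 0.23 (edgeR adjusted p = 1.47e-09). IGFBP3 had 762, 931 and 943 CPM in the control libraries, 1543, 1695 and 1574 CPM in the siControl RAS libraries and 598, 886 and 866 CPM in the knockdown libraries: it was high in siControl RAS cells, and its interval against control was -0.55 to 0.22, within 1.5-fold. FGF2, a fibroblast mitogen, averaged 98.6, 279.8 and 124 CPM in control, siControl RAS and knockdown cells and IGFBP4 804, 1779 and 1011 CPM. Both were called higher than control and yet within 1.5-fold, at 0.33 ± 0.09 (edgeR adjusted p = 0.00383) and 0.33 ± 0.05 (edgeR adjusted p = 6.32e-06). IGFBP6 and the EGF receptor ligand HBEGF were lower than control in knockdown cells, at -1.14 ± 0.13 (edgeR adjusted p = 7.30e-09) and -0.89 ± 0.15 (edgeR adjusted p = 1.00e-05).

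MMP1, MMP2 and MMP3, secreted proteases of the matrix, stayed above control, while SERPINE2, TFPI2 and the urokinase receptor were below it. In the list of 17 proteases and inhibitors, 10 (58.8%) were called higher, 3 (17.6%) lower and 4 (23.5%) were within 1.5-fold, against 19.2%, 16.7% and 23.9% of all genes. The shares called lower and within 1.5-fold are thus near those of all genes. MMP3, stromelysin, had 25.6, 19.1 and 18.6 CPM in the control libraries, 605, 561 and 704 CPM in the siControl RAS libraries and 126, 112 and 146 CPM in the knockdown libraries. The groups were separate with the knockdown libraries in between, and the difference from control was 2.59 ± 0.23 (edgeR adjusted p = 3.38e-06). The collagenase MMP1 averaged 156, 1241 and 649 CPM in control, siControl RAS and knockdown cells, 2.06 ± 0.06 (edgeR adjusted p = 1.72e-23) from control. PAPPA, which cleaves IGFBP4, averaged 176, 2118 and 1895 CPM and showed the greatest difference of the list, 3.43 ± 0.05 (edgeR adjusted p = 4.88e-32). SERPINB2, an inhibitor of urokinase, had 28.8, 31.1 and 25.6 CPM in the control libraries, 123, 114 and 135 CPM in the siControl RAS libraries and 18.1, 36.3 and 32.7 CPM in the knockdown libraries. Its siControl RAS libraries were high and its knockdown libraries overlapped control, with an interval of -0.42 to 0.49. SERPINE2, an inhibitor of thrombin and urokinase, had 839.8, 841 and 828 CPM in the control libraries, 1595, 1605 and 1442 CPM in the siControl RAS libraries and 431, 480.1 and 459 CPM in the knockdown libraries. It was highest in siControl RAS cells and below all control libraries in knockdown cells, at -0.87 ± 0.06 (edgeR adjusted p = 5.57e-14). The Kunitz inhibitor TFPI2 and PLAUR, the urokinase receptor, were also lower than control, at -0.71 ± 0.08 (edgeR adjusted p = 2.97e-09) and -0.77 ± 0.08 (edgeR adjusted p = 3.72e-09). MMP10 averaged 0.534, 17.7 and 1.02 CPM in the same order and was not called against control, with an interval of -0.66 to 2.36. PLAU, urokinase, was called higher at an edgeR adjusted p of 0.0397, but the call was lost without the expression filter (adjusted p = 0.0676), with limma-voom (0.0968), with the 2 groups alone (0.116), with a replicate block (0.06) and without single libraries, at up to 0.137 without knockdown replicate 2.

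The NF-κB and C/EBP list remained almost entirely above control: 18 of 21 members were called higher and 0 lower, against 19.2% and 16.7% of all genes, with medians of 1.94 in knockdown and 2.22 in siControl RAS cells. ICAM1, the leukocyte adhesion receptor, had 4.22, 1.98 and 2.33 CPM in the control libraries, 70.7, 82.8 and 88.2 CPM in the siControl RAS libraries and 83.3, 94.5 and 99.5 CPM in the knockdown libraries. Knockdown and siControl RAS libraries were both above all control libraries, and the knockdown difference was 5.004 ± 0.22 (edgeR adjusted p = 6.56e-22). VCAM1, the receptor for the integrin VLA-4, had 0, 0.165 and 0 CPM in the control libraries, 3.68, 2.81 and 2.14 CPM in the siControl RAS libraries and 14.8, 23.1 and 19.5 CPM in the knockdown libraries. It was highest in every knockdown library, at a knockdown to control ratio of 361 (95% counting interval 64.4 to 14310) and 2.71 ± 0.28 (edgeR adjusted p = 1.45e-09) above siControl RAS cells. SOD2, mitochondrial superoxide dismutase, and the TNF-induced gene TNFAIP2 differed from control by 3.65 ± 0.08 (edgeR adjusted p = 1.69e-21) and 2.68 ± 0.15 (edgeR adjusted p = 5.31e-16). The feedback inhibitors NFKBIA and TNFAIP3 were also higher than control, by 2.18 ± 0.07 (edgeR adjusted p = 1.07e-23) and 2.78 ± 0.15 (edgeR adjusted p = 2.14e-17). PTGS2, cyclooxygenase 2, averaged 11.5, 957 and 117 CPM in control, siControl RAS and knockdown cells, a wide drop from the siControl RAS level that left it 3.34 ± 0.11 (edgeR adjusted p = 1.25e-23) above control. CEBPB, the C/EBP factor most tied to the SASP, averaged 99.7, 256 and 137 CPM and was 0.46 ± 0.10 (edgeR adjusted p = 3.90e-04) from control. RELA, the main transactivating subunit of NF-κB, was within 1.5-fold of control, with an interval of -0.05 to 0.36.

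Most interferon-stimulated genes remained above control. Of 29 tested members (OASL was too low), 25 (86.2%) were called higher, 0 lower and 0 were within 1.5-fold, against 19.2%, 16.7% and 23.9% of all genes, and the medians were 2.28 in knockdown and 2.65 in siControl RAS cells. MX1, an antiviral GTPase, had 0.625, 1.48 and 2.83 CPM in the control libraries, 42.1, 46.5 and 44.2 CPM in the siControl RAS libraries and 31.5, 35.8 and 34.8 CPM in the knockdown libraries. The knockdown and siControl RAS libraries were both above control, and the knockdown difference was 4.37 ± 0.39 (edgeR adjusted p = 5.10e-11). ISG15, a ubiquitin-like modifier, averaged 18.8, 156 and 114 CPM in control, siControl RAS and knockdown cells, 2.60 ± 0.39 (edgeR adjusted p = 3.36e-04) from control. CXCL10, an attractant of T cells, and OAS2, a sensor of double-stranded RNA, were each at 1 count over the control libraries, with knockdown to control ratios of 389.9 (95% counting interval 69.5 to 15440) and 287 (95% counting interval 51.1 to 11390). BST2, which tethers budding virions, had no count in control and was at least 18.3-fold higher in knockdown cells, taking 3 counts over the group as the floor. IFI6 and IFI27, small interferon-induced proteins, had means of 87.0, 2775 and 1018 CPM and 1.34, 205 and 29.1 CPM in control, siControl RAS and knockdown cells, and remained 3.55 ± 0.07 (edgeR adjusted p = 5.40e-29) and 4.41 ± 0.32 (edgeR adjusted p = 3.75e-16) above control. ISG20, IFIT2, IFIT5 and HERC5 were not called.

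Targets and feedback inhibitors of the ERK pathway, which RAS activates, were called in both directions. In the list of 21, 8 (38.1%) were called higher, 4 (19.1%) lower and 4 (19.1%) were within 1.5-fold, against 19.2%, 16.7% and 23.9% of all genes. The shares called lower and within 1.5-fold are near those of all genes, and the median was 0.06 against 0.74 in siControl RAS cells. The knockdown median turned to -0.00145 without control replicate 3. DUSP6, the phosphatase of ERK, had 164, 164 and 144 CPM in the control libraries, 550.3, 552 and 516 CPM in the siControl RAS libraries and 323, 444 and 397 CPM in the knockdown libraries. The 3 groups did not overlap, and the difference from control was 1.30 ± 0.10 (edgeR adjusted p = 2.86e-11). The immediate early gene EGR1 averaged 68.5, 480.4 and 156 CPM in control, siControl RAS and knockdown cells and differed from control by 1.18 ± 0.10 (edgeR adjusted p = 2.49e-12). IER3, an early response gene, averaged 458, 8870.02 and 4953 CPM and differed by 3.43 ± 0.07 (edgeR adjusted p = 6.56e-22). PHLDA1 had 489, 449.6 and 438 CPM in the control libraries, 871, 838 and 821 CPM in the siControl RAS libraries and 440.3, 474 and 479 CPM in the knockdown libraries. It was high in siControl RAS cells alone, and its interval against control was -0.13 to 0.16. FOSL1, a subunit of AP-1, was lower than control at -1.64 ± 0.19 (edgeR adjusted p = 8.12e-09), and the phosphatase DUSP1 at -1.28 ± 0.15 (edgeR adjusted p = 2.50e-08). SPRED1, an inhibitor of RAS signalling, was within 1.5-fold.

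Cell division genes did not return to the control level. All 30 members of the mitosis list were called lower than control, against 16.7% of all genes, with a median of -3.16 in knockdown and -4.21 in siControl RAS cells. MKI67, the proliferation antigen Ki-67, had 285, 303 and 264 CPM in the control libraries, 9.54, 14.1 and 7.31 CPM in the siControl RAS libraries and 38.4, 44.9 and 39.6 CPM in the knockdown libraries. Every knockdown library lay above every siControl RAS library and far below control, and the differences were -2.79 ± 0.14 (edgeR adjusted p = 1.17e-16) from control and 2.00 ± 0.17 (edgeR adjusted p = 1.40e-10) from siControl RAS cells. CDC20, the activator of the anaphase-promoting complex, had 131, 145 and 149.9 CPM in the control libraries, 3.13, 1.499 and 6.24 CPM in the siControl RAS libraries and 10.4, 8.80 and 13.95 CPM in the knockdown libraries. The knockdown libraries were again between the other groups, -3.68 ± 0.23 (edgeR adjusted p = 1.47e-12) from control. CCNA2, cyclin A2, averaged 47.8, 1.93 and 4.98 CPM in control, siControl RAS and knockdown cells, CCNB1, cyclin B1, 139, 13.0 and 23.1 CPM, and TOP2A, topoisomerase II alpha, 865, 56.8 and 108 CPM. Their differences from control were -3.25 ± 0.31 (edgeR adjusted p = 3.01e-10), -2.59 ± 0.15 (edgeR adjusted p = 4.47e-16) and -3.00 ± 0.09 (edgeR adjusted p = 2.60e-24). Between knockdown and siControl RAS cells, 18 of the 30 were called higher and 0 lower, against 7.47% and 8.06% of all genes.

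The promoters of CDC20 and CCNA2 are shown because many division genes carry the cell cycle homology region and CCAAT boxes. The former is read by a repressor complex and the latter are bound by the activator NF-Y. Capitals mark the letters of the cell cycle homology region (TTTGAA or TTCGAA) and of the CCAAT box (CCAAT), each searched on both strands. The windows are the 250 bases before the RefSeq start on GRCh38.p14, CDC20 at chr1:43358731-43358980 on the plus strand and CCNA2 at chr4:121823884-121824133 on the minus strand.
CDC20: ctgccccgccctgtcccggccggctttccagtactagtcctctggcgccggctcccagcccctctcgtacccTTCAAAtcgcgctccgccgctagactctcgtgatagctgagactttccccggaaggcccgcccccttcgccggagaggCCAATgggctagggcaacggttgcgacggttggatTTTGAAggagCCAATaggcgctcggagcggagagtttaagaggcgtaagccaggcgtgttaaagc
CCNA2: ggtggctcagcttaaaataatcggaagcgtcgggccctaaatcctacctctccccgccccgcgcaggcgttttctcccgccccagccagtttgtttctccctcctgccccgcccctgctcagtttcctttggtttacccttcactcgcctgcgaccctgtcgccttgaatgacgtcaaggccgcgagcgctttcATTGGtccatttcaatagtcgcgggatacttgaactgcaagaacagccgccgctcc
CDC20 has 2 matches of each element, and CCNA2 has 1 CCAAT box and no match to the homology letters in this window. Only these exact letters were searched, so the missing match does not show that CCNA2 lacks a homology region of another form. Of 24 mitosis promoters in the table, 13 held the homology letters (54.2%) and 20 a CCAAT box (83.3%), against 14.6% and 33% of all promoters.

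DNA replication genes were lower as well: 25 of 26 tested members were called lower (E2F2 was too low to test) and 0 higher, against 16.7% and 19.2% of all genes, and CCNE1, cyclin E1, was not called. Their median was -2.10 in knockdown and -2.75 in siControl RAS cells. MCM5, a subunit of the replicative helicase, had 58.4, 55.7 and 51.2 CPM in the control libraries, 4.36, 4.496 and 3.21 CPM in the siControl RAS libraries and 15.2, 9.57 and 8.21 CPM in the knockdown libraries. The knockdown libraries lay between the other groups, -2.34 ± 0.29 (edgeR adjusted p = 2.66e-07) from control and 1.43 ± 0.34 (edgeR adjusted p = 0.00375) from siControl RAS cells. RRM2, the regulated subunit of ribonucleotide reductase, averaged 121, 7.02 and 14.9 CPM and differed from control by -3.02 ± 0.20 (edgeR adjusted p = 6.84e-14). MCM10 and CDT1, which load and start the helicase, differed by -3.39 ± 0.36 (edgeR adjusted p = 1.62e-09) and -3.22 ± 0.34 (edgeR adjusted p = 1.82e-09).

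Chromatin and nuclear envelope genes followed the division genes. Of 20 members, 18 (90%) were called lower than control, against 16.7% of all genes, and SUZ12, a Polycomb subunit, was within 1.5-fold. LMNB1, lamin B1, had 83.1, 71.8 and 90.3 CPM in the control libraries, 6.67, 5.99 and 4.99 CPM in the siControl RAS libraries and 10.2, 9.72 and 8.37 CPM in the knockdown libraries. All knockdown libraries were far below control, at -3.12 ± 0.20 (edgeR adjusted p = 6.99e-15). HMGB2, a DNA-bending chromatin protein, averaged 72.8, 5.77 and 10.7 CPM in control, siControl RAS and knockdown cells and differed from control by -2.75 ± 0.23 (edgeR adjusted p = 8.82e-12). HMGA1, an architectural chromatin protein, averaged 1761, 667 and 936 CPM and differed by -0.91 ± 0.06 (edgeR adjusted p = 4.27e-14). LMNA, lamin A/C, averaged 595, 221 and 339 CPM and differed by -0.81 ± 0.18 (edgeR adjusted p = 0.00521).

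Cell cycle inhibitors remained high. CDKN1A, p21, had 687, 702 and 671 CPM in the control libraries, 1788, 1676 and 1848 CPM in the siControl RAS libraries and 1441, 1294 and 1404 CPM in the knockdown libraries. The 3 groups did not overlap and the knockdown libraries were nearer to siControl RAS than to control, at 1.01 ± 0.06 (edgeR adjusted p = 2.39e-16) above control. CDKN2B, p15, had 4.84, 2.80 and 2.33 CPM in the control libraries, 46.2, 57.0 and 45.1 CPM in the siControl RAS libraries and 27.0, 41.5 and 30.0 CPM in the knockdown libraries, 3.29 ± 0.25 (edgeR adjusted p = 7.76e-14) above control. CDKN2A, which encodes both p16 and ARF without the tags telling them apart, had 98.1, 77.7 and 94.5 CPM in the control libraries, 156, 174 and 170.2 CPM in the siControl RAS libraries and 133, 179 and 180.4 CPM in the knockdown libraries. Knockdown and siControl RAS libraries overlapped, and the difference from control was 0.87 ± 0.11 (edgeR adjusted p = 1.98e-07). In the list of 21 inhibitors and genes of the arrest and DNA damage response, 13 (61.9%) were called higher, 1 (4.76%) lower and 3 (14.3%) were within 1.5-fold, against 19.2%, 16.7% and 23.9% of all genes. Of the list, RRM2B, a ribonucleotide reductase subunit for repair, and the death receptor TNFRSF10B differed by 1.27 ± 0.13 (edgeR adjusted p = 6.35e-09) and 1.06 ± 0.13 (edgeR adjusted p = 3.62e-08). CDKN2C, p18, was the member called lower, at -2.87 ± 0.53 (edgeR adjusted p = 1.71e-04). CCND2, cyclin D2, which belongs to no list here and was picked after its values were seen, had 11.6, 8.89 and 16.8 CPM in the control libraries, 165, 176 and 177 CPM in the siControl RAS libraries and 392, 422 and 363 CPM in the knockdown libraries. Its knockdown libraries were above all others, 4.98 ± 0.12 (edgeR adjusted p = 6.98e-25) from control.

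**Figure D3:**
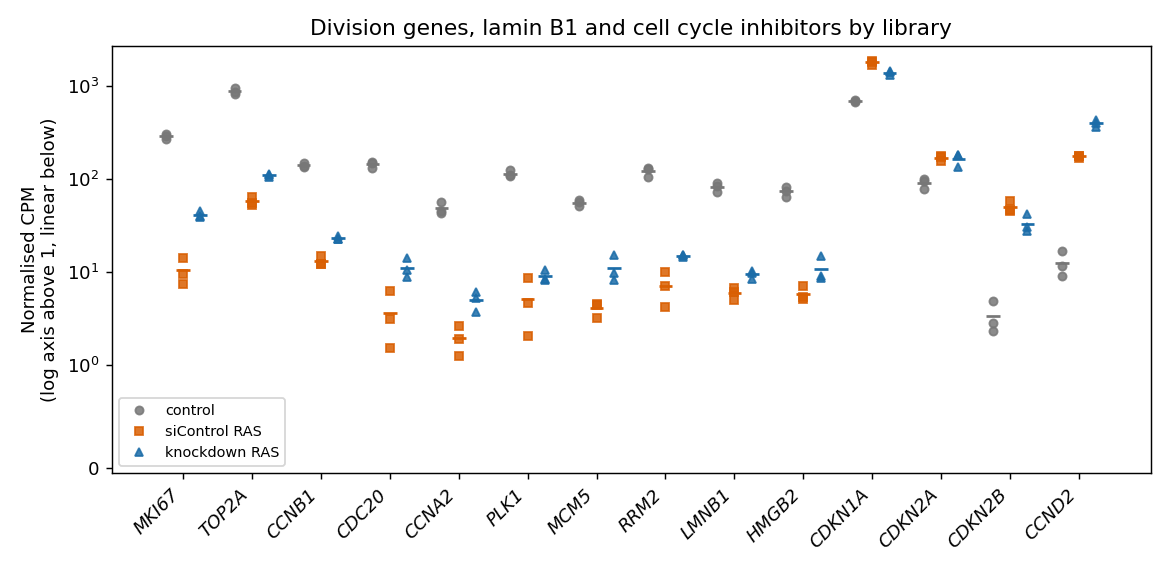
Normalised CPM of division genes, LMNB1, HMGB2, the inhibitors CDKN1A, CDKN2A and CDKN2B, and CCND2 by library (log axis above 1 CPM, linear below), with a line at each group mean. For MKI67 to HMGB2 the knockdown libraries lie well below control, and CDKN1A, CDKN2A and CDKN2B stay above it.

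Most matrix genes remained above control, while some, VCAN and FN1 among them, lay near it. Of 31 members, 20 (64.5%) were called higher, 3 (9.68%) lower and 10 (32.3%) were within 1.5-fold, against 19.2%, 16.7% and 23.9% of all genes. The list median was 1.12 in knockdown and 1.51 in siControl RAS cells. POSTN, periostin, a matricellular protein of remodelling tissue, had 3.28, 5.11 and 4.49 CPM in the control libraries, 189, 204 and 197 CPM in the siControl RAS libraries and 118, 116 and 118 CPM in the knockdown libraries. Both RAS groups were far above control, and the knockdown difference was 4.77 ± 0.17 (edgeR adjusted p = 5.60e-24). COL3A1, the collagen III chain, differed by 2.86 ± 0.06 (edgeR adjusted p = 2.15e-27), COL1A1 by 1.66 ± 0.05 (edgeR adjusted p = 5.85e-25), and TNC, tenascin C, by 3.22 ± 0.13 (edgeR adjusted p = 6.42e-16). VCAN, the proteoglycan versican, had 386, 381 and 376 CPM in the control libraries, 959.5, 994 and 930.3 CPM in the siControl RAS libraries and 395, 408 and 409 CPM in the knockdown libraries. Its siControl RAS libraries were above all other libraries, the knockdown libraries lay just above the control libraries, and the interval was -0.04 to 0.21, within 1.5-fold. FN1, fibronectin, had 3056, 2817 and 2626 CPM in the control libraries, 5669, 5386 and 5059.9 CPM in the siControl RAS libraries and 2545, 2466 and 2256 CPM in the knockdown libraries. It was highest in siControl RAS cells and slightly below control in knockdown cells, at -0.23 ± 0.06 (edgeR adjusted p = 0.00159), within 1.5-fold. The fibulin FBLN5, fibrillin FBN1, FBLN1 and the collagen IV chain COL4A2 were also within 1.5-fold. ELN, the elastin precursor tropoelastin, had 11.7, 9.22 and 11.0 CPM in control and 0, 0.154 and 0.164 CPM in knockdown libraries. Its control to knockdown ratio was 93.2 (95% counting interval 25.5 to 775). ELN was low in both RAS groups, at 6 counts over the siControl RAS and 2 over the knockdown libraries. The ratio of these was 2.87 (95% counting interval 0.513 to 29.1).

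**Figure D4:**
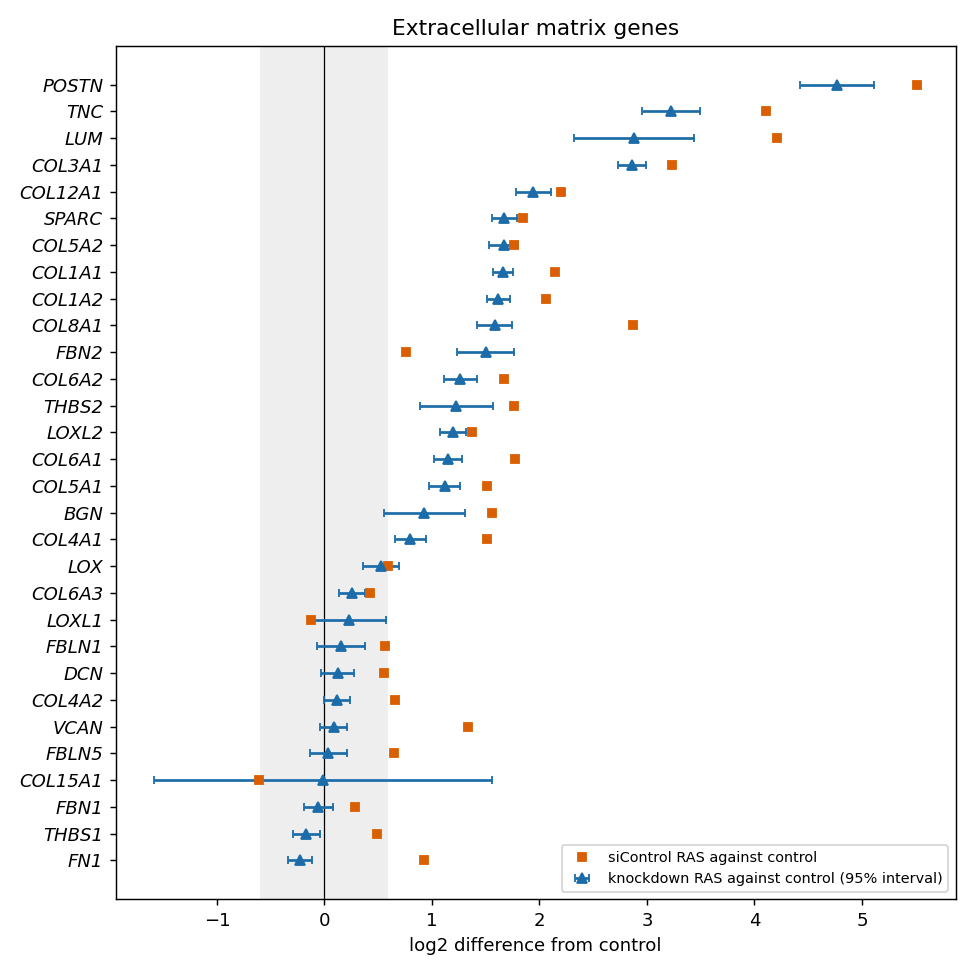
Log2 difference from control of 30 matrix genes in knockdown RAS cells (triangles, with the 95% interval) and in siControl RAS cells (squares), with a grey band from -0.585 to 0.585; ELN is left out because its knockdown level was under 1 CPM. POSTN, TNC and the fibrillar collagens lie to the right of the band, and VCAN, FN1, FBN1 and FBLN5 inside it.

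Most lysosomal genes remained modestly above control. Of 27 tested members (GLA was too low), 18 (66.7%) were called higher, 0 lower and 6 (22.2%) were within 1.5-fold, against 19.2%, 16.7% and 23.9% of all genes. The median was 0.58 in knockdown and 0.62 in siControl RAS cells. CTSS, cathepsin S, had 0.781, 0.824 and 1.16 CPM in the control libraries, 131, 132 and 153 CPM in the siControl RAS libraries and 55.5, 42.4 and 54.3 CPM in the knockdown libraries. The groups were separate, and the difference from control was 5.75 ± 0.33 (edgeR adjusted p = 2.21e-21). CTSK, cathepsin K, averaged 10.7, 162 and 103 CPM in control, siControl RAS and knockdown cells and differed by 3.27 ± 0.13 (edgeR adjusted p = 1.25e-21). GLB1, which encodes the lysosomal β-galactosidase stained as a senescence marker, had 48.6, 52.2 and 52.4 CPM in the control libraries, 117, 92.5 and 105 CPM in the siControl RAS libraries and 81.5, 84.7 and 64.7 CPM in the knockdown libraries, a difference from control of 0.59 ± 0.12 (edgeR adjusted p = 1.71e-04). TPP1, a lysosomal peptidase, and the cathepsin CTSB differed by 1.17 ± 0.12 (edgeR adjusted p = 6.43e-10) and 0.90 ± 0.06 (edgeR adjusted p = 3.25e-15). LAMP2 and the proton pump subunit ATP6V0D1 were within 1.5-fold.

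Stress response genes were called in both directions, each at about the share of all genes, and amino acid transporters were among the lower ones. In the list of 24 unfolded protein and ATF4 genes, 6 (25%) were called higher, 4 (16.7%) lower and 10 (41.7%) were within 1.5-fold, against 19.2%, 16.7% and 23.9% of all genes. PSAT1, a serine synthesis enzyme, and DDIT3, the factor CHOP, averaged 9.44, 25.9 and 9.10 CPM and 20.8, 40.0 and 18.9 CPM in control, siControl RAS and knockdown cells, high in siControl RAS cells and within 1.5-fold of control in knockdown cells. SLC7A11, the cystine transporter, had 57.7, 42.2 and 41.6 CPM in the control libraries, 25.7, 17.0 and 32.3 CPM in the siControl RAS libraries and 12.4, 8.95 and 13.6 CPM in the knockdown libraries. The knockdown libraries were the lowest of the 3 groups, -2.02 ± 0.23 (edgeR adjusted p = 1.06e-08) from control and -1.11 ± 0.24 (edgeR adjusted p = 8.22e-04) from siControl RAS cells. SLC7A5, which imports large neutral amino acids, had 131, 141 and 145 CPM in the control libraries, 76.8, 86.4 and 79.9 CPM in the siControl RAS libraries and 43.3, 34.6 and 31.8 CPM in the knockdown libraries. It too was lowest in knockdown libraries, -1.93 ± 0.12 (edgeR adjusted p = 2.74e-15) from control, and its partner chain SLC3A2 differed by -1.41 ± 0.12 (edgeR adjusted p = 2.21e-11). VLDLR and CHAC1, an enzyme that degrades glutathione, remained above control, by 1.99 ± 0.27 (edgeR adjusted p = 2.00e-07) and 0.82 ± 0.10 (edgeR adjusted p = 1.96e-08).

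Of 21 cholesterol synthesis genes, 1 (4.76%) was called higher, 8 (38.1%) lower and 6 (28.6%) were within 1.5-fold, against 19.2%, 16.7% and 23.9% of all genes. Without knockdown replicate 2, 5 were called lower, and TM7SF2, the 1 called higher, was not called without control replicate 1 (edgeR adjusted p = 0.0977) or knockdown replicate 3 (adjusted p = 0.0744). MSMO1, a sterol methyl oxidase, had 57.7, 54.8 and 68.2 CPM in the control libraries, 36.9, 50.6 and 34.0 CPM in the siControl RAS libraries and 66.9, 50.3 and 63.5 CPM in the knockdown libraries. The knockdown and control libraries overlapped, and the interval against control was -0.31 to 0.31. LSS, which closes the sterol rings, and HMGCS1, an early enzyme of the pathway, averaged 23.2, 16.1 and 22.8 CPM and 31.9, 24.3 and 32.3 CPM in control, siControl RAS and knockdown cells and were also within 1.5-fold of control. EBP, a sterol isomerase, was called lower at -1.15 ± 0.28 (edgeR adjusted p = 0.00126).

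Of 22 contractile and SRF or YAP target genes, 9 (40.9%) were called higher, 2 (9.09%) lower and 9 (40.9%) were within 1.5-fold, against 19.2%, 16.7% and 23.9% of all genes. VCL, vinculin, a focal adhesion protein, had 483, 509.8 and 521 CPM in the control libraries, 305, 327 and 295 CPM in the siControl RAS libraries and 509, 454 and 496 CPM in the knockdown libraries. It was low in siControl RAS cells, and its interval against control was -0.19 to 0.08. The actin crosslinker FLNA, the factor SRF and TAGLN, transgelin, were also within 1.5-fold. CNN1, calponin, had 133, 130.3 and 122 CPM in the control libraries, 182, 170.1 and 151 CPM in the siControl RAS libraries and 308, 247 and 224 CPM in the knockdown libraries. Every knockdown library exceeded the other groups, 1.02 ± 0.10 (edgeR adjusted p = 3.52e-10) from control. MYOCD, the coactivator myocardin, averaged 22.5, 474 and 182 CPM in control, siControl RAS and knockdown cells and differed by 3.01 ± 0.09 (edgeR adjusted p = 9.22e-24). TGFB2, a TGF-β ligand, averaged 31.0, 139.98 and 191 CPM and differed by 2.62 ± 0.10 (edgeR adjusted p = 6.26e-21). ANKRD1, a YAP target, was lower than control at -0.59 ± 0.16 (edgeR adjusted p = 0.00332).

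The energy metabolism and translation lists had small median differences, 0.21 for glycolysis and hypoxia, -0.21 for the respiratory chain and -0.39 for ribosomal proteins. In the list of 27 glycolysis and hypoxia genes, 13 (48.1%) were called higher, 4 (14.8%) lower and 17 (63%) were within 1.5-fold, against 19.2%, 16.7% and 23.9% of all genes; a gene can be both called and within 1.5-fold. The enzymes ENO1, PKM and TPI1 were near control. CA12, a carbonic anhydrase, averaged 18.4, 51.6 and 19.7 CPM in control, siControl RAS and knockdown cells and was within 1.5-fold of control, while PFKFB4, a regulator of glycolytic flux, remained higher by 1.21 ± 0.21 (edgeR adjusted p = 1.11e-05). EGLN3, a hypoxia-induced prolyl hydroxylase, was at 2 counts over the control libraries and had a knockdown to control ratio of 63.4 (95% counting interval 17.2 to 529.5). PDK1, a kinase that inhibits pyruvate dehydrogenase, was lower than control at -0.97 ± 0.14 (edgeR adjusted p = 9.98e-07). Of 29 respiratory chain genes, 1 (3.45%) was called higher, 9 (31%) lower and 17 (58.6%) were within 1.5-fold, against 19.2%, 16.7% and 23.9% of all genes. The gene called higher was the ATP synthase subunit ATP5MC1. Among 30 ribosomal protein genes, 1 (3.33%) was called higher, 16 (53.3%) lower and 11 (36.7%) were within 1.5-fold, against 19.2%, 16.7% and 23.9% of all genes. RPS19, the member called higher, differed by 0.64 ± 0.07 (edgeR adjusted p = 4.60e-09). Tags of ribosomal protein genes are uncertain because of processed copies elsewhere in the genome. In the m6A list of 20 tested genes (RBM15B was not matched), 2 (10%) were called higher, 5 (25%) lower and 9 (45%) were within 1.5-fold, against 19.2%, 16.7% and 23.9% of all genes. METTL14, the siRNA target, is among those called lower. WTAP, the adaptor of the writer complex, was higher by 0.89 ± 0.08 (edgeR adjusted p = 2.21e-11), and the readers YTHDF2 and YTHDC1 were within 1.5-fold.

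Among the 10 called genes furthest above control were, beside the cytokines, VCAM1, CXCL10 and OAS2 above, the TNF-family ligand TNFSF15, the epithelial transcription factor EHF and the complement component C3. C3 had 0.156, 0.165 and 0.166 CPM in control and 34.9, 44.4 and 34.6 CPM in knockdown libraries, a ratio of 236 (95% counting interval 80.5 to 1149), and all knockdown libraries were higher. The siControl RAS libraries held more of both C3 and EHF. Before scaling to library size, C3 summed to 1456 counts over siControl RAS and 671 over knockdown libraries, and EHF to 525 and 285. For EHF, knockdown minus siControl RAS was -0.80 (edgeR adjusted p = 0.00948). That call was lost without siControl replicate 1 (edgeR adjusted p = 0.0523) and without knockdown replicate 3 (edgeR adjusted p = 0.0743). Among the 10 furthest below control were the kinetochore genes SPC25 and SKA1, at -4.57 ± 0.67 (edgeR adjusted p = 6.01e-07) and -4.12 ± 0.69 (edgeR adjusted p = 8.32e-06), and PLK4, the kinase of centriole duplication, at -3.95 ± 0.88 (edgeR adjusted p = 6.53e-04). PMEL, the amyloid protein of melanosomes, had 21.1, 24.0 and 18.0 CPM in control and 1.02, 0.617 and 1.64 CPM in knockdown libraries and differed by -4.25 ± 0.60 (edgeR adjusted p = 9.93e-07). The others were CDCA8 and PIMREG, both mitotic genes, ELN and CXCL12, whose values stand above, and ID1 and ID4.

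ID1, ID2, ID3 and ID4 encode helix-loop-helix proteins that block differentiation factors and are induced by bone morphogenetic proteins (BMPs); they and the BMP and activin genes here were set out after ID1 and ID4 had been seen to be among the genes furthest below control. ID1 had 186, 191 and 217 CPM in the control libraries, 13.6, 19.1 and 14.97 CPM in the siControl RAS libraries and 2.64, 9.57 and 9.03 CPM in the knockdown libraries. Each knockdown library was the lowest of the 3 groups, -4.76 ± 0.27 (edgeR adjusted p = 4.55e-11) from control. ID3 had 263, 254 and 253 CPM in the control libraries, 66.2, 51.1 and 56.7 CPM in the siControl RAS libraries and 16.1, 22.1 and 17.7 CPM in the knockdown libraries. It was lowest in knockdown cells as well, -3.77 ± 0.17 (edgeR adjusted p = 9.34e-15) from control and -1.63 ± 0.18 (edgeR adjusted p = 2.05e-07) from siControl RAS cells. ID2 averaged 439, 54.0 and 75.8 CPM in control, siControl RAS and knockdown cells, with the knockdown libraries above siControl RAS, and differed from control by -2.54 ± 0.10 (edgeR adjusted p = 5.76e-21). ID4 had 193 counts over the control libraries, 0 over the siControl RAS libraries and 1 over the knockdown libraries. Its control to knockdown ratio was 183 (95% counting interval 32.4 to 7252). The ligand BMP4 had 6.72, 7.25 and 5.99 CPM in the control libraries, 176, 183 and 162 CPM in the siControl RAS libraries and 213, 167 and 199.9 CPM in the knockdown libraries, both RAS groups far above control, 4.85 ± 0.14 (edgeR adjusted p = 9.60e-26) for knockdown cells. The secreted BMP antagonist GREM1 had 371, 394 and 366 CPM in the control libraries, 386, 398 and 381 CPM in the siControl RAS libraries and 104, 111 and 119 CPM in the knockdown libraries. Control and siControl RAS libraries overlapped and every knockdown library was lower, -1.76 ± 0.07 (edgeR adjusted p = 5.70e-20) from control. FST, which binds activins, averaged 431, 211 and 63.8 CPM and SMOC1, a secreted BMP antagonist, 74.1, 182 and 18.4 CPM in the same order. Both were lower in knockdown cells than in either other group, -2.75 ± 0.13 (edgeR adjusted p = 2.22e-13) and -2.01 ± 0.13 (edgeR adjusted p = 2.62e-15) from control. SMAD6, an inhibitory SMAD induced by BMPs, averaged 16.9, 3.86 and 2.52 CPM and differed by -2.71 ± 0.48 (edgeR adjusted p = 2.83e-05).

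**Figure D5:**
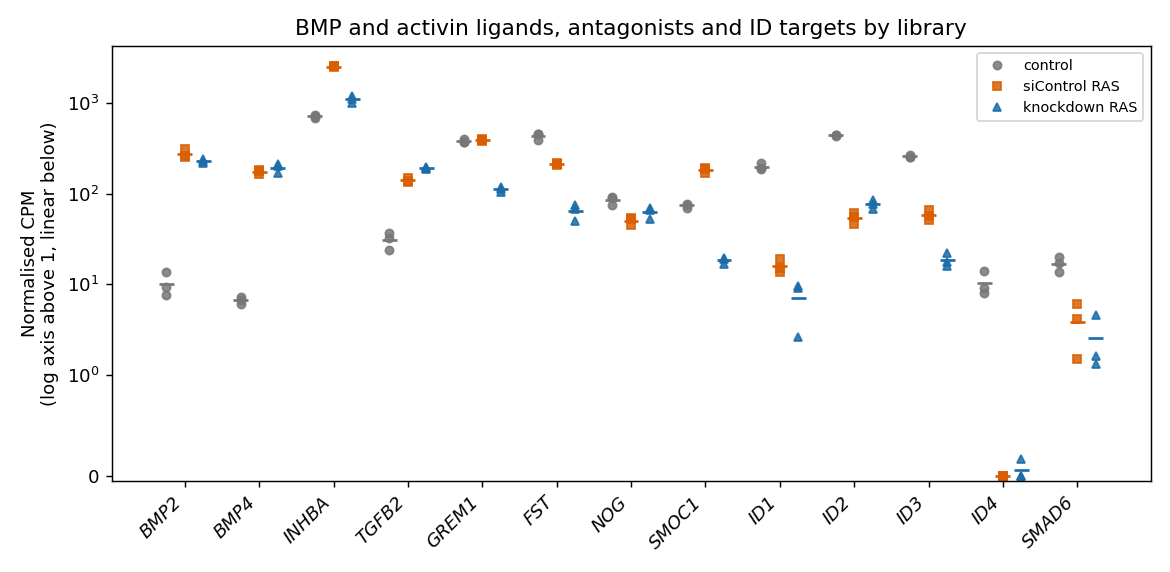
Normalised CPM of BMP, activin and TGF-β ligands, their secreted antagonists and the ID and SMAD6 targets by library (log axis above 1 CPM, linear below), with a line at each group mean. BMP2 and BMP4 are above control in both RAS groups, GREM1, FST and SMOC1 are lowest in knockdown cells, and ID1, ID3 and ID4 are below control.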

How the data were processed

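RNA of 15 IMR90 libraries in 5 groups of 3 was sequenced from a QuantSeq kit, which per the labels' protocols followed DNase-treated extraction. The authors deposited a table of whole-number counts per Ensembl gene for all libraries. The submitters' processing notes name Bowtie2, RSEM 1.2.12 and hg19 without roles; nothing used here says how whole numbers arose or whether strand was counted. Of 57736 IDs, 52301 (90.59%) had a symbol, and 2 list genes were not matched. The 13516 genes passing edgeR's expression filter held 99.8% of counts. They were fitted in edgeR 4.0.16 (R 4.3.3; TMM, robust quasi-likelihood, 10 residual degrees of freedom) with a coefficient for each of the 5 groups, and p-values were adjusted over all tested genes. Intervals of the log2 difference are 95% intervals from that fit; ratios of genes at 1 to 3 counts have exact intervals that cover counting error only. The depth of 4917661 to 7763084 counts per library limits genes below about 1 CPM. The fit was tested on simulated counts.

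Nothing in the labels says that replicate numbers pair the cultures, and the main fit did not pair them. Deviations of same-numbered control and knockdown libraries correlated at 0.049, 0.0054 and 0.0030. Those of differently numbered libraries correlated at -0.039 to 0.036. Values this small, from 3 libraries per group, cannot decide whether cultures were paired. Genes named are METTL14, METTL3, HRAS, the 10 called genes furthest above and the 10 furthest below control (at least 10 CPM in either group, no overlap of libraries), up to 3 called and 2 near-control members per list, and 16 common senescence genes; other list members are given as examples, and genes outside this rule and the lists are said to have been chosen later. Members and lists were chosen with earlier results of these data known. Alternatives were RLE and upper-quartile scaling, no expression filter, DESeq2 1.42.0, limma-voom (limma 3.58.1), the 2 groups alone, a replicate block and each library left out. Promoter windows come from RefSeq on GRCh38.p14, a different build from hg19, and no coordinates of the counted genes are given. A few genes of the lists are not reported here by name.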

Additional observations from a re-analysis of the deposited data

How the results depend on the processing

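The 119 genes taken by the naming rule gave 1544 combinations with the alternative settings. Of these, 1521 kept their side of the threshold, 15 lost a call and 8 gained one. No gene called in either fit changed direction, and direction was not compared where a gene was called in neither. The lost and gained calls involved 11 genes, all with small differences or few counts. The genes called numbered 4860 with RLE factors, 4856 with upper-quartile factors, 4809 without the expression filter, 4977 with DESeq2, 4930 with limma-voom, 4460 with the 2 groups alone and 4290 to 4422 with 1 library left out. With the replicate block 4940 genes were called, and RPS14 was called lower (adjusted p = 0.00701), while PLAU, outside these 119, lost its call (adjusted p = 0.06); 2 of 6 libraries correlated best with their own number. Fitting the 2 groups alone gave medians of 4.64 for the SASP cytokines, 2.08 for the NF-κB list and 1.52 for the endothelial markers. The expression filter was rerun for that fit, and list members that did not pass it are not in these medians. The ERK median reversed to -0.00145 without control replicate 3. With 1 library left out, medians ranged from 1.00 to 1.08 for growth factors, 0.278 to 0.392 for proteases, 1.78 to 2.04 for NF-κB, -0.00145 to 0.109 for ERK targets, 0.52 to 0.616 for cell cycle inhibitors and arrest genes, -3.235 to -3.08 for mitosis, 0.482 to 0.586 for lysosome, 0.0576 to 0.127 for stress response, -0.353 to -0.181 for cholesterol, -0.244 to -0.166 for the respiratory chain, -0.173 to -0.119 for m6A, 1.05 to 1.19 for fibroblast and 0.477 to 1.18 for endothelial markers. In the same fits 0 to 1 cholesterol members were called higher and 5 to 7 lower, and 0 to 1 leukocyte members higher. The cause of these moves was not tested. For knockdown against siControl RAS cells, leaving out single libraries, added after seeing the data, gave 1669 to 1886 calls in place of 2100 and 16 to 20 mitosis genes higher.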

Other observations

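Some genes outside the lists, chosen after their values were seen, lay beyond both other groups in knockdown RAS cells. PTX3, the long pentraxin of innate immunity, had 77.4, 73.8 and 70.7 CPM in the control libraries, 1129.7, 1085 and 992 CPM in the siControl RAS libraries and 1392, 1459 and 1388 CPM in the knockdown libraries, and every knockdown library was the highest, 4.26 ± 0.07 (edgeR adjusted p = 2.59e-31) from control. GFRA1, a receptor for GDNF, averaged 8.39, 17.7 and 57.2 CPM in control, siControl RAS and knockdown cells, ELOVL2, a fatty acid elongase, 8.55, 10.4 and 41.4 CPM, and LIFR, the receptor of LIF, 17.6, 19.5 and 46.0 CPM. Their differences from control were 2.76 ± 0.18 (edgeR adjusted p = 3.12e-15), 2.27 ± 0.19 (edgeR adjusted p = 3.36e-12) and 1.39 ± 0.19 (edgeR adjusted p = 4.44e-07). On the low side, RGS4, a regulator of G protein signalling, averaged 60.6, 89.8 and 20.5 CPM, the tetraspanin-like TM4SF1 399, 362 and 166 CPM and the RNA-editing enzyme ADARB1 51.9, 40.0 and 13.9 CPM in the same order, at -1.55 ± 0.19 (edgeR adjusted p = 1.30e-07), -1.27 ± 0.07 (edgeR adjusted p = 9.22e-17) and -1.89 ± 0.18 (edgeR adjusted p = 2.47e-10) from control.

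BTG1, NR4A2 and HMGN2 are also outside the lists and were chosen after their values were seen. BTG1 and NR4A2 were high in siControl RAS cells and near or below control after depletion. BTG1, an antiproliferative gene, had 348, 326 and 297 CPM in the control libraries, 991, 998 and 934 CPM in the siControl RAS libraries and 327, 288 and 294 CPM in the knockdown libraries, knockdown and control libraries overlapped, and its interval against control was -0.25 to 0.05. NR4A2, an orphan nuclear receptor, had 30.0, 36.2 and 20.3 CPM in the control libraries, 191, 149 and 156 CPM in the siControl RAS libraries and 10.8, 16.2 and 12.1 CPM in the knockdown libraries. All knockdown libraries lay below control, at -1.13 ± 0.19 (edgeR adjusted p = 1.71e-05), and below siControl RAS at -3.65 ± 0.18 (edgeR adjusted p = 1.16e-15). HMGN2, a nucleosome-binding protein, was instead lower in both RAS groups with means of 729.8, 137 and 143 CPM, -2.35 ± 0.08 (edgeR adjusted p = 1.61e-22) from control for knockdown cells.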
